A study of Homo sapiens with 6 samples.

Results

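Ribosome biogenesis factors and RNA polymerase I genes were followed here as 38 genes of the 20532 in the deposited count table, taken by gene name: 5 genes of RNA polymerase I transcription, 7 of the small nucleolar ribonucleoproteins (snoRNPs), 3 abundant nucleolar proteins, 12 small subunit factors, 10 large subunit factors and the 60S export adaptor NMD3. All 38 were found once each, and all 38 passed the filter on low counts, with at least 568 counts in every library. The libraries were made from mRNA-enriched RNA of ACHN cells, an established human renal carcinoma line that the labels assign to clear cell renal cell carcinoma. One group of 3 libraries (shCtrl 1, 2 and 3) came from cells given a negative control short hairpin RNA by lentivirus, and the other 3 (shDNAJC2 1, 2 and 3) from cells given a hairpin against DNAJC2 in the same way, so that transduction is common to both groups. DNAJC2 encodes a chaperone of the ribosome. The libraries are called biological replicates in the series text, but whether they came from separate transductions is not given in the sources used here, so p-values measure the spread between these libraries only.

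Ribosomes are built in the nucleolus, where RNA polymerase I copies the ribosomal RNA (rRNA) genes into a long precursor. Guide RNAs held in box C/D and box H/ACA snoRNPs direct methylation and pseudouridylation of that precursor, while large assemblies fold and cleave it into the small (40S) and large (60S) subunits, which then leave through nuclear pores. Growing tumour cells commonly keep this pathway at a high level, and many of its genes respond together to growth signals and to nutrient or stress signals. The libraries measure the mRNAs of these factors, not rRNA or ribosomes.

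The libraries did not fall into their groups. Total counts ranged from 17491462 to 25760291 per library. DNAJC2 was at 76.7, 69.8 and 86.5 CPM (counts scaled to library size with TMM factors) across shCtrl 1, 2 and 3, against 51.2, 50.4 and 38.5 CPM across the shDNAJC2 libraries in order, without overlap. The log2 fold change was −0.74 (standard error 0.15), and adjusted p-values were 0.429 by edgeR (quasi-likelihood, all 6 libraries), 0.04997 by DESeq2 and 0.00799 by edgeR without shCtrl 3. An exact two-sided permutation test gave p = 0.1, and no smaller value can arise with 3 libraries in each group. Over all genes tested, however, the root mean square log2 difference was 0.195 between shCtrl 1 and 2, 0.780 between shCtrl 1 and 3 and 0.259 between shCtrl 3 and shDNAJC2 2, so results are given with and without shCtrl 3. Of the markers listed for renal epithelium, KRT18 and KRT8 were present and PAX8 lay at 2.71 to 4.36 CPM. PAX2 and CDH16 had at most 3 counts in any library. The labelled cell type is therefore not borne out by all of its defining markers. VIM, which was also listed but is not particular to epithelium, lay at 3062 to 4036 CPM. CPM values of all these markers are scaled to total counts without TMM factors. The 5 blood markers summed to at most 1.90 CPM and the 4 endothelial markers to at most 6.46 CPM. The 6 fibroblast markers, led by COL1A1, summed to 950 to 4496 CPM in shCtrl and 880 to 1640 CPM in shDNAJC2. They were lower in shCtrl 3 than in the other controls, and their part in the results below was not tested.

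Before their values, the sequence in front of 5 of the members is shown, chosen as the member with the largest fitted difference (DDX21), 2 subunits of one complex that varied unlike each other (DKC1 and NOP10), a member that was higher in every knockdown library (WDR75) and the member that was lower in every one (UBTF). Each is the 250 bases before the RefSeq start, 5′ to 3′ on the gene's strand, on GRCh38.p14, at chr10:68955920-68956169 (plus strand), chrX:154762614-154762863 (plus), chr15:34343137-34343386 (minus), chr2:189441224-189441473 (plus) and chr17:44220883-44221132 (minus) in the order given. Capitals mark matches, on either strand, to the E-box CACGTG bound by MYC and its relatives, the ETS core CGGAAG, the NRF1 site (GCGC, then A and any base, then GCGC) or the ATF4 element TGATGNAA. No match overlapped another here.
DDX21: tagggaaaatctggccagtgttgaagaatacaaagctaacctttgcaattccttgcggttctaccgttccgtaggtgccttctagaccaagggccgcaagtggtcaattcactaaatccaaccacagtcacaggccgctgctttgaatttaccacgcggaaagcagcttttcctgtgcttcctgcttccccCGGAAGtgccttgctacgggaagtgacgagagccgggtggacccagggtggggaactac
DKC1: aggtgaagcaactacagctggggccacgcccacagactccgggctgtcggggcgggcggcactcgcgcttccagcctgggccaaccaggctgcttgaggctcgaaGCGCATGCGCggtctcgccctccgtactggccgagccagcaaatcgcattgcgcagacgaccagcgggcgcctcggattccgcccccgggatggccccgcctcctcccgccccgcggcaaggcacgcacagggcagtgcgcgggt
NOP10: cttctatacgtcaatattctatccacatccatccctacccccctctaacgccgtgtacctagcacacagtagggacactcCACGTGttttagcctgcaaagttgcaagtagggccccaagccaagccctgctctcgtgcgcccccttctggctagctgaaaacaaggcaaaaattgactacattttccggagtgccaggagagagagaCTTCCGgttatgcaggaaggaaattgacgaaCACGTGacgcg
WDR75: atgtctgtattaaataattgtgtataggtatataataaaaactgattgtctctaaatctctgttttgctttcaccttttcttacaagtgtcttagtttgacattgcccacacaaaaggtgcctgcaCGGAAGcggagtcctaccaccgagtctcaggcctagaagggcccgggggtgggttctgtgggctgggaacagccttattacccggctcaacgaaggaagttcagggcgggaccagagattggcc
UBTF: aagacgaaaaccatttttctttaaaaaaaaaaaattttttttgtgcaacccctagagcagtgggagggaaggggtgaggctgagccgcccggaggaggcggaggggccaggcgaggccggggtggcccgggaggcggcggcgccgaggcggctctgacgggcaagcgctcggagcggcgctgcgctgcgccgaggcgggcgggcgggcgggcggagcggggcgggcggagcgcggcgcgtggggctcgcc
A promoter entry was matched for 33 of the 38 members. The ETS core stood in 14 of the 33 (42.4%), against 27.5% of 10963 tested genes with a promoter entry and 16.8% of all 27305 promoters. It was more common still in the other ribosome assembly genes (60.5% of 86) and the cytosolic ribosomal protein genes (57.8% of 71). The NRF1 site stood in 7 (21.2%, against 10.2% and 5.53%), and the E-box in 4 (12.1%, against 8.84% and 6.49%), namely NOP10, UTP4, UTP20 and EBNA1BP2. In the other ribosome assembly genes these shares were 10.5% for the NRF1 site and 15.1% for the E-box, and in the cytosolic ribosomal protein genes 9.86% and 5.63%. The ATF4 element stood in 0 of the 33 and in 0 of the 86 other assembly genes, against 1.48% of tested genes and 3.19% of all promoters. NOP10 held the E-box at 2 places and the ETS core at 1, DKC1 held 1 NRF1 site, DDX21 and WDR75 held 1 ETS core each, and UBTF held none of the 4 motifs. These matches describe letters in this window only.

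Over all 6 libraries, edgeR called (adjusted p under 0.05) 0 of the 38 members, as it called 0% of the 13988 genes tested, and DESeq2 also called 0 members (0.179% of the 10083 genes it adjusted). The median log2 fold change of the members was 0.27, against −0.02 over all genes tested, and 35 of the 38 values were positive, against 47.7% of all genes. At an unadjusted p under 0.05, 3 members were higher (WDR75, WDR12 and UTP15; 4.0% of all genes) and 1 was lower (UBTF; 7.33% of all genes). The groups did not overlap for 3 members that were higher (WDR75, WDR12 and NOP10; 7.33% of all genes) and 1 that was lower (UBTF; 8.43% of all genes). These counts are near those of all genes.

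Without shCtrl 3, with 2 controls against 3 knockdown libraries, 30 members rose and 1 fell in edgeR, where 17.8% of 14201 genes were called higher and 17.0% lower, and the median of the members was 0.51. The 7 members not called were POLR1A, FBL, NOP10, UTP20, DDX10, BOP1 and RRS1. This fit left out a library because it stood apart in these same data, so its calls describe the libraries and are not an independent test. Without shCtrl 1 or without shCtrl 2, edgeR called 0 members, with medians of 0.16 and 0.17. The groups did not overlap for 35 members without shCtrl 3 (65.1% of all genes), 18 without shDNAJC2 3 (40.0%), 5 without shCtrl 1 (19.4%) or shCtrl 2 (18.2%), and 4 without shDNAJC2 1 (17.7%) or shDNAJC2 2 (21.3%).

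**Figure D1:**
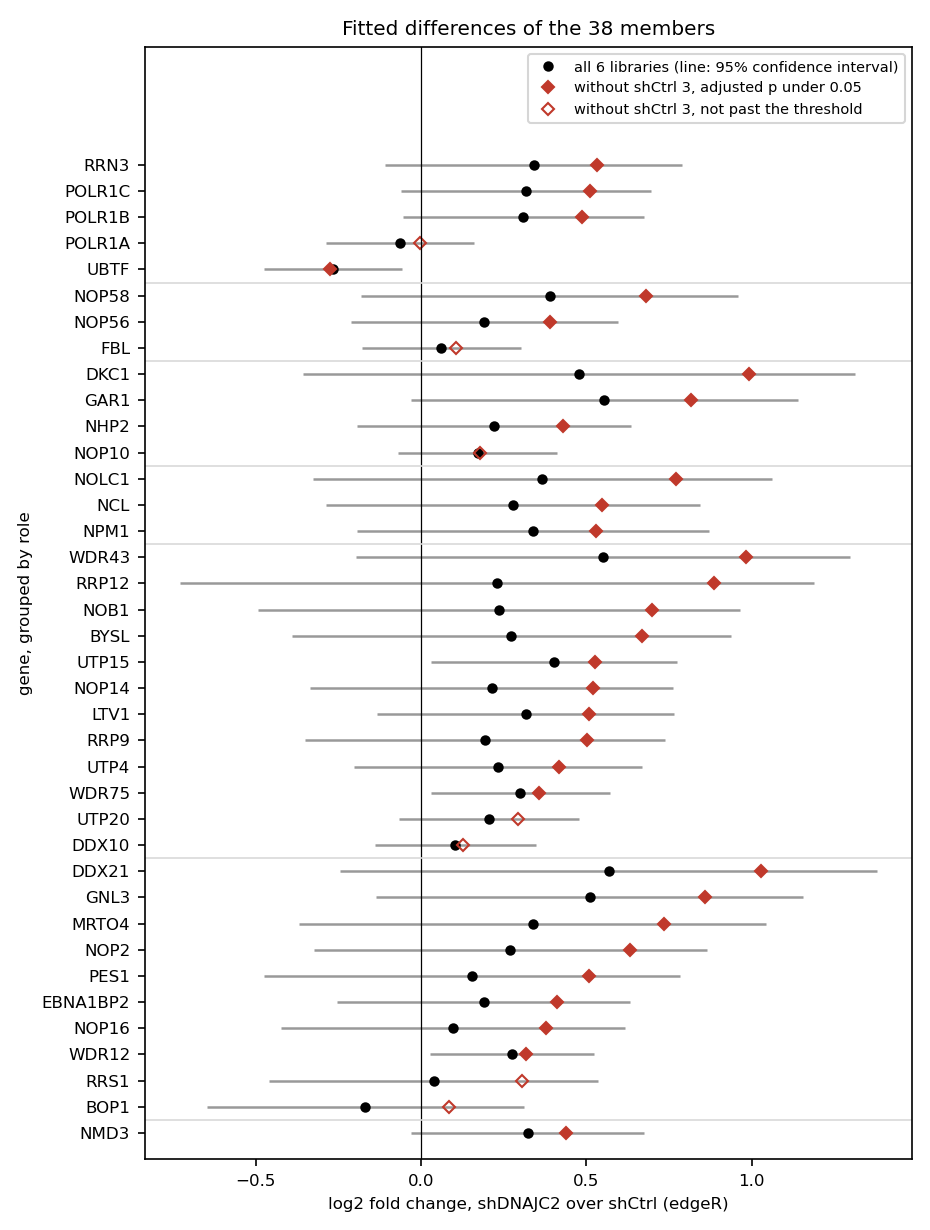
Log2 fold change (shDNAJC2 over shCtrl, edgeR) of each member, grouped by role. Black points and grey lines are the fit of all 6 libraries with its 95% confidence interval, and diamonds the fit without shCtrl 3, filled where the adjusted p was under 0.05. UBTF lies left of 0 in both fits, and for most other members the diamond lies to the right of the black point.

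Compared library by library, the members were nearly level between shCtrl 1 and shCtrl 2 and well above them in shCtrl 3. In shCtrl 3 the median member was 0.61 higher than in shCtrl 1 on the log2 scale, and 37 of the 38 were higher. The same median was 0.58 for shDNAJC2 1, 0.57 for shDNAJC2 2 and 0.29 for shDNAJC2 3, against −0.00055 for shCtrl 2. Over all genes tested, the medians of these 5 differences lay between −0.020 and 0.015. At least 1.5-fold above shCtrl 1 were 20 members in shCtrl 3 (15.8% of all genes), 18 in shDNAJC2 1 (15.3%), 17 in shDNAJC2 2 (14.2%), 3 in shDNAJC2 3 (8.11%) and 0 in shCtrl 2 (0.987%). At least 1.5-fold below shCtrl 1 were 0 members in each of the 5 other libraries, against 1.79% of all genes in shCtrl 2, 18.3% in shCtrl 3, 19.5% in shDNAJC2 1, 18.1% in shDNAJC2 2 and 8.67% in shDNAJC2 3.

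The control with the high values could not be told from the first 2 knockdown libraries by the median of the members. From shCtrl 3 the median member differed by −0.01 in shDNAJC2 1 and by −0.0048 in shDNAJC2 2, and it was 0.35 lower in shDNAJC2 3, where 35 of the 38 were lower. At least 1.5-fold below shCtrl 3 were 1 member in shDNAJC2 1 (7.13% of all genes), 0 in shDNAJC2 2 (2.44%) and 4 in shDNAJC2 3 (6.96%). The highest of the 6 libraries was shCtrl 3 for 17 members (22.8% of all genes), shDNAJC2 1 for 16 (23.0%), shDNAJC2 2 for 4 (6.13%) and shCtrl 2 for 1 (20.8%). The lowest was shCtrl 1 or shCtrl 2 for 35 members, against 37.6% of all genes. All 3 knockdown libraries lay above both shCtrl 1 and shCtrl 2 for 34 members, against 32.3% of all genes, and shDNAJC2 3 was the lowest of the knockdown libraries for 35, against 39.4%.

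**Figure D2:**
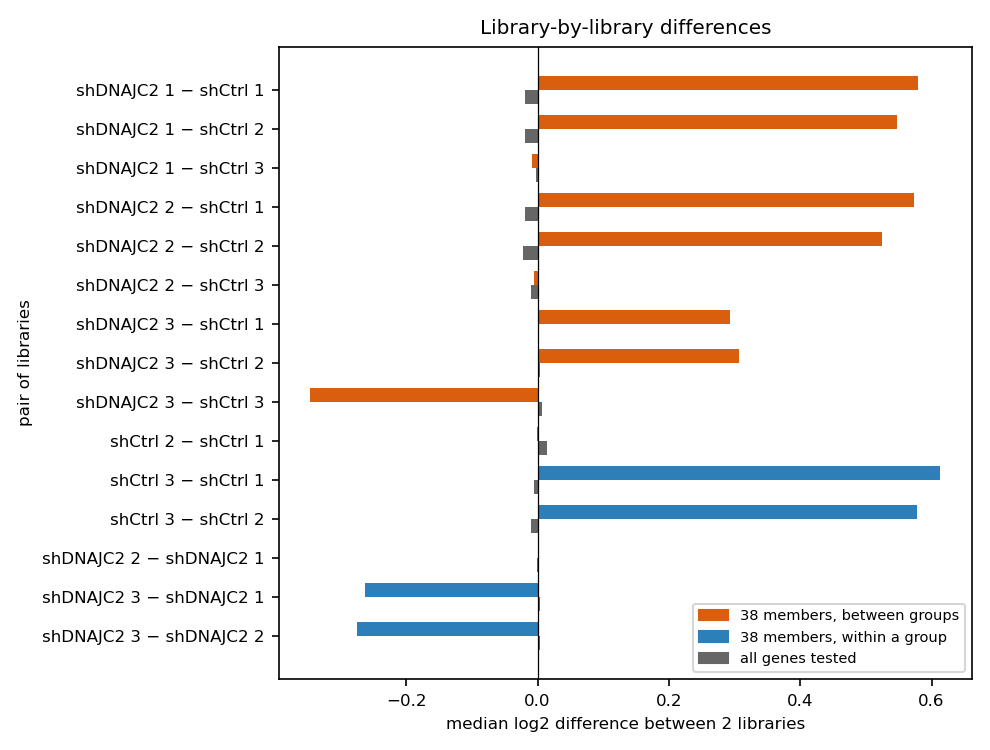
Median log2 difference between each pair of libraries, first named minus second named, over the 38 members (orange between groups, blue within a group) and over all genes tested (grey). The difference of shCtrl 3 from the other controls (0.61 and 0.58) is as large as that of shDNAJC2 1 and 2 from them, and grey bars stay near 0.

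**Figure D3:**
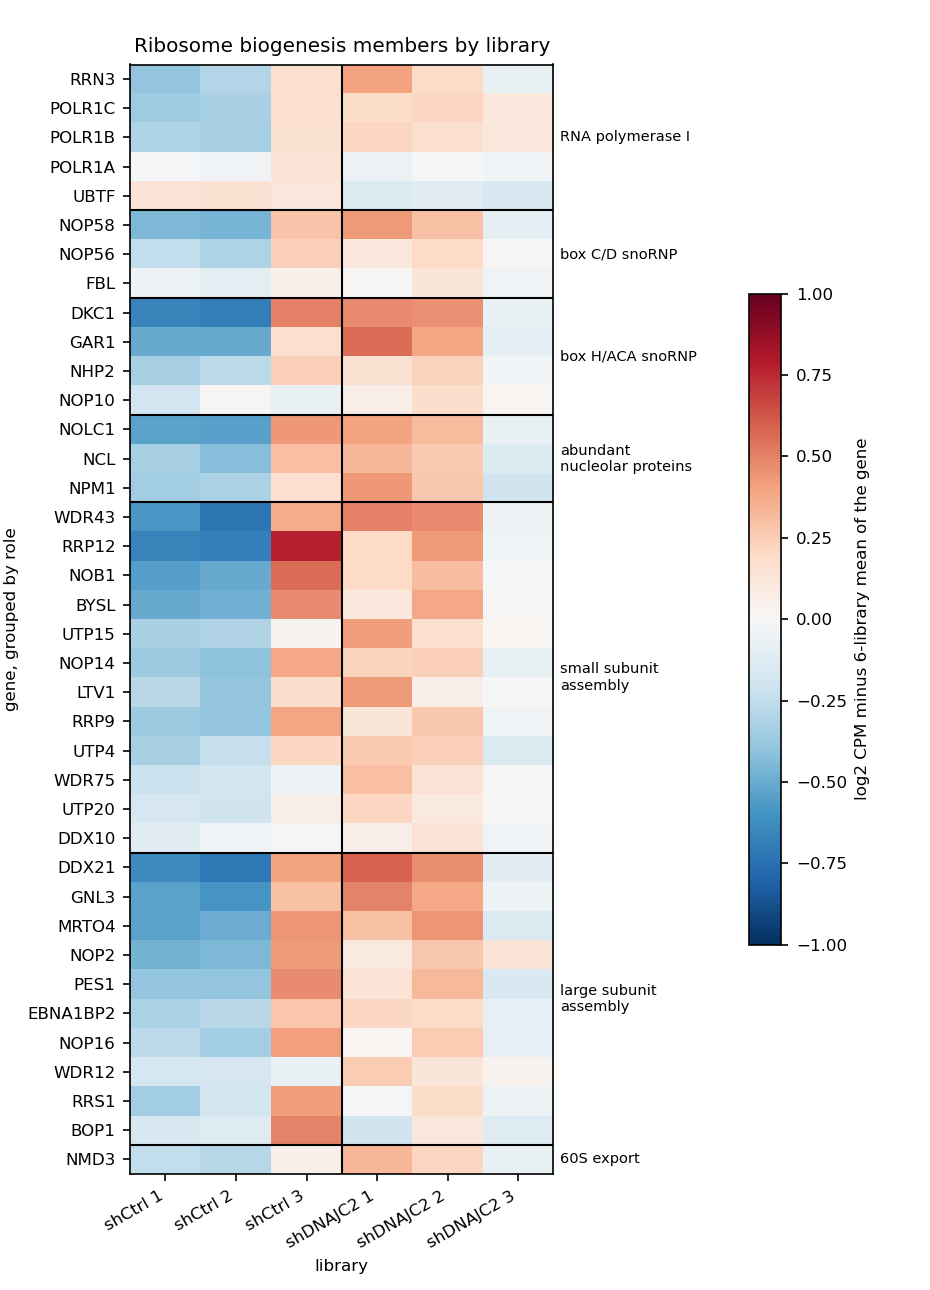
Log2 CPM of each member in each library minus the mean of that gene over the 6 libraries, grouped by role. The columns of shCtrl 1 and 2 are mostly blue, those of shCtrl 3 and shDNAJC2 1 and 2 mostly red, and that of shDNAJC2 3 is pale, while the row of UBTF is red in all 3 controls and blue in all 3 knockdown libraries.

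Among the genes of RNA polymerase I transcription, UBTF stood apart, with every control above every knockdown library. UBTF (ENSG00000108312, chromosome 17, 44205033 to 44221626 on GRCh38), which binds and opens the rRNA genes, had 169, 170 and 165 CPM across shCtrl 1, 2 and 3, against 139, 142 and 138 CPM across the shDNAJC2 libraries. The groups did not overlap, and shCtrl 3 stood with the other controls. The means were 168 ± 2.50 and 140 ± 2.08 CPM (SD, n = 3), and the log2 fold change was −0.27 (standard error 0.09, 95% interval −0.47 to −0.06). In edgeR UBTF had an unadjusted p of 0.0192 and an adjusted p of 0.429 over all 6 libraries, and fell without shCtrl 3 (−0.27, adjusted p 0.0416). The stretch before the RefSeq start of UBTF, shown above, lies inside this annotated span and was 70.8% GC. The longest transcript of UBTF was 55.0% GC. The GC trend of a library was a smooth curve on the GC content of the longest transcript. It was fitted to log2 CPM minus the mean of each gene over the libraries. With the GC trend of each library removed, the log2 fold change of UBTF was −0.16. The edgeR call without shCtrl 3 then ended (adjusted p 0.0892).

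The other polymerase genes were high in shCtrl 3 as well as in the knockdown libraries, or differed little between libraries. POLR1B, the second largest subunit, had 32.2, 31.6 and 44.2 CPM across the controls, against 46.3, 44.5 and 43.1 CPM with the DNAJC2 hairpin, so that shCtrl 3 lay inside the knockdown range. POLR1C, a subunit shared with RNA polymerase III, was at 45.4, 46.4 and 65.3 CPM and at 65.9, 67.5 and 62.5 CPM. RRN3, the factor that brings the polymerase to its promoter, was at 54.2, 58.0 and 79.6 CPM and at 94.3, 81.1 and 67.6 CPM. Over all libraries the log2 fold changes of these genes were 0.31, 0.32 and 0.34, and all 3 rose without shCtrl 3 (0.49, 0.51 and 0.53). POLR1A, the largest and catalytic subunit, differed little, at 89.7, 88.3 and 99.7 CPM against 87.0, 90.1 and 88.8 CPM (log2 fold change −0.06, 95% interval −0.29 to 0.16). RRN3 has 2 named pseudogenes, and 18.2% of the exon bases of POLR1C lie opposite exons of other genes, whose reads cannot be told apart where the strand setting is not given.

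The box C/D snoRNP places 2′-O-methyl groups on rRNA, and its core genes differed in their spread over the libraries. NOP58, a core protein, had 76.3, 75.5 and 126 CPM across the controls, against 139, 127 and 97.6 CPM with the DNAJC2 hairpin, a log2 fold change of 0.39 (95% interval −0.18 to 0.96). Its partner NOP56 was at 223, 213 and 311 CPM against 284, 303 and 266 CPM (0.19, −0.21 to 0.59). FBL, the methyltransferase fibrillarin, spanned only 174 to 202 CPM over the 6 libraries. Without shCtrl 3, NOP58 and NOP56 rose (0.68 and 0.39) and FBL was not called (0.11, adjusted p 0.422 in edgeR).

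In the box H/ACA snoRNP, which pseudouridylates rRNA and also forms part of telomerase, the catalytic subunit varied most and NOP10 least. DKC1 (dyskerin, the pseudouridine synthase) had 97.3, 95.9 and 220 CPM across the controls, against 215, 213 and 148 CPM with the DNAJC2 hairpin. Its level in shCtrl 3 was 2.28-fold the mean of the other controls, and its log2 fold change over all libraries, 0.48, had an interval of −0.36 to 1.31. GAR1 was at 30.3, 30.3 and 48.1 CPM against 63.2, 56.4 and 40.1 CPM, and its log2 fold change was 0.55 (−0.03 to 1.14 at 95%). NHP2 was at 76.4, 79.4 and 113 CPM against 107, 113 and 94.2 CPM (0.22, −0.19 to 0.63). These 3 rose without shCtrl 3, by 0.99, 0.82 and 0.43.

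NOP10 (ENSG00000182117, chromosome 15, 34341713 to 34343177), the small subunit that braces dyskerin, had 62.6, 71.8 and 67.6 CPM across the controls, against 74.5, 80.7 and 72.3 CPM with the DNAJC2 hairpin. The groups did not overlap, but the nearest libraries, shCtrl 2 and shDNAJC2 3, were almost level. Its log2 fold change was 0.17 (standard error 0.10, edgeR adjusted p 0.458), and it was not called without shCtrl 3 (0.18, adjusted p 0.218). Per length of merged exons (RPKM, CPM divided by the length in kilobases), mean levels over the 6 libraries were 129 RPKM for NOP10, 64.3 for NHP2, 39.2 for DKC1 and 21.9 for GAR1. Per length of the longest transcript they were 129, 112, 53.5 and 36.5 in the same order. The subunit with the highest level was thus the one that varied least, but its distance from NHP2 depended on the length used. Of the exon bases of NHP2, 27.4% lie opposite exons of RMND5B.

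**Figure D4:**
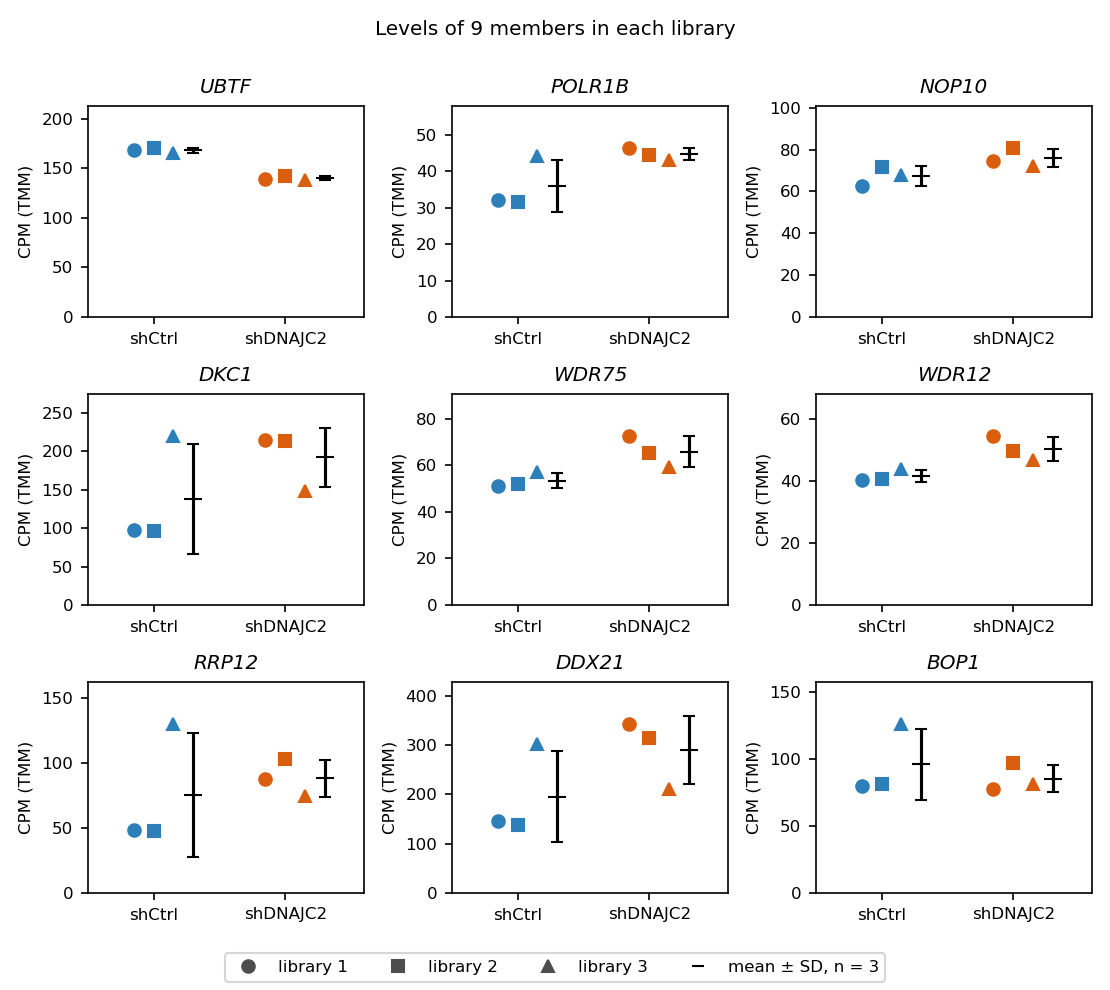
TMM-normalized CPM of 9 members in each library (circle, square and triangle for libraries 1, 2 and 3 of each group), with the mean and SD of each group (n = 3), on axes that start at 0. In DKC1, RRP12, DDX21 and BOP1 the shCtrl 3 triangle stands far above the other controls, while in UBTF, NOP10, WDR75 and WDR12 it stays near them.

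Of the abundant nucleolar proteins, NPM1 and NCL had the highest mean levels per length of all 38 members, at 272 and 165 RPKM, and NOLC1 had 55.4 RPKM. NCL, nucleolin, had 886, 830 and 1374 CPM across the controls, against 1402, 1333 and 1015 CPM with the DNAJC2 hairpin. NPM1, nucleophosmin, was at 799, 815 and 1141 CPM against 1372, 1227 and 886 CPM. NOLC1, a snoRNP chaperone, was at 146, 145 and 285 CPM against 279, 264 and 201 CPM. For all 3, shCtrl 3 lay inside the knockdown range or just above it, and shDNAJC2 3 was the lowest knockdown library. Log2 fold changes over all libraries were 0.28, 0.34 and 0.37, and without shCtrl 3 all 3 rose (0.55, 0.53 and 0.77). The NPM1 call (adjusted p 0.0483) ended when the GC trend was also removed (adjusted p 0.0670), and NPM1 has 45 named pseudogenes whose reads may be shared with it. Of the 38 members, 9 have at least 1 named pseudogene.

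Of the 12 small subunit factors, all had a positive log2 fold change over all libraries (median 0.23), and 10 rose without shCtrl 3, where 17.8% of all genes were called higher. Of these 10 calls, those of UTP4 and WDR75 ended when the GC trend was also removed. The edgeR adjusted p of UTP4 went from 0.0400 to 0.0505. WDR75 (ENSG00000115368, chromosome 2, 189441433 to 189475565), a member of the complex that couples rRNA transcription to processing, had 51.0, 51.9 and 57.1 CPM across the controls, against 72.5, 65.3 and 59.2 CPM with the DNAJC2 hairpin. The groups did not overlap, with shCtrl 3 and shDNAJC2 3 nearest each other. Its log2 fold change was 0.30 (standard error 0.11, edgeR unadjusted p 0.0346, adjusted p 0.429), and it was called without shCtrl 3 (0.36, adjusted p 0.0385), a call that ended when the GC trend was also removed (adjusted p 0.0527). UTP15, of the same complex, was at 24.3, 24.6 and 30.9 CPM against 40.7, 34.0 and 30.8 CPM (0.40, 95% interval 0.03 to 0.77), so that shCtrl 3 and shDNAJC2 3 were level. The complex's other members here were high in shCtrl 3 too: WDR43 was at 47.1, 42.7 and 91.3 CPM against 99.8, 97.7 and 68.1 CPM, and UTP4 at 81.6, 87.5 and 119 CPM against 124, 122 and 93.2 CPM.

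Several factors that shape and finish the 40S subunit were far higher in shCtrl 3 than in the other controls. RRP12, which serves late pre-40S maturation and export, had 48.1, 47.4 and 130 CPM across the controls, against 87.6, 103 and 74.2 CPM with the DNAJC2 hairpin. Its level in shCtrl 3 was 2.72-fold the mean of the other controls, the largest such fold of the 38 members, and above every knockdown library. NOB1, the nuclease that trims the end of 18S rRNA, was at 47.4, 48.9 and 102 CPM against 79.5, 85.8 and 68.6 CPM. BYSL, bystin, was at 41.5, 42.2 and 81.3 CPM against 63.4, 76.8 and 59.4 CPM. In these 3 genes shCtrl 3 was the highest of the 6 libraries, as it was in NOP14 and in RRP9, the protein specific to the U3 snoRNP. Log2 fold changes over all libraries were 0.23, 0.24 and 0.27 for RRP12, NOB1 and BYSL, and 0.89, 0.70 and 0.67 without shCtrl 3.

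The remaining small subunit factors lay closer together over the libraries, or were among those called without shCtrl 3. LTV1, a late 40S factor, had 38.2, 35.4 and 52.2 CPM across the controls, against 62.1, 48.5 and 46.1 CPM with the DNAJC2 hairpin, and rose without shCtrl 3 (0.51). UTP20 spanned 56.3 to 74.8 CPM, and its value without shCtrl 3 was 0.29 (edgeR adjusted p 0.0529). The helicase gene DDX10 spanned 30.4 to 36.3 CPM over the 6 libraries, and its fitted log2 fold change of 0.10 became −0.010 with the GC trend removed. NOP14 and RRP9 rose without shCtrl 3 (0.52 and 0.50). Of the exon bases of NOB1 and NOP14, 20.2% and 17.1% lie opposite exons of other genes. LTV1, with 1847 exon bases, shares 643 with exons of AL049844.1 and AL049844.3 on the same strand, where no strand setting tells reads apart.

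Among the 10 large subunit factors, the 3 proteins of the PeBoW complex, which acts in the maturation of 28S and 5.8S rRNA, had unlike patterns. WDR12 (ENSG00000138442, chromosome 2, 202874782 to 203014798) had 40.3, 40.6 and 43.7 CPM across the controls, against 54.4, 49.7 and 46.7 CPM with the DNAJC2 hairpin, without overlap. Its log2 fold change was 0.27 (standard error 0.10, edgeR unadjusted p 0.0347, adjusted p 0.429), and 0.32 without shCtrl 3 (adjusted p 0.0485). PES1 was at 110, 109 and 200 CPM against 158, 180 and 129 CPM, highest in shCtrl 3. BOP1 was at 79.8, 81.6 and 126 CPM against 77.9, 96.7 and 81.4 CPM, so that shCtrl 3 alone stood well above the rest. The log2 fold change of BOP1, −0.17 over all libraries, was 0.084 without shCtrl 3 and 0.11 with the GC trend removed. BOP1 had the highest GC content of the members (65.2%) and WDR12 one of the lower ones (40.2%).

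DDX21, an RNA helicase of rRNA synthesis and processing, had the largest fitted difference of the members. DDX21 had 146, 138 and 302 CPM across the controls, against 343, 314 and 212 CPM with the DNAJC2 hairpin, a log2 fold change of 0.57 (95% interval −0.24 to 1.38) over all libraries and 1.03 without shCtrl 3 (edgeR adjusted p 0.00445). GNL3, nucleostemin, was at 96.7, 92.8 and 172 CPM against 197, 183 and 135 CPM (0.51, and 0.86 without shCtrl 3). In both genes shCtrl 3 lay inside the knockdown range. The 28S rRNA methyltransferase gene NOP2 was at 67.8, 69.2 and 127 CPM against 101, 114 and 103 CPM, with shCtrl 3 above every knockdown library. Of the 4687 exon bases of NOP2, 2550 overlap exons of AC006064.6 on the same strand, where no strand setting tells reads apart. MRTO4, which holds the place of the ribosomal stalk on the pre-60S subunit, was at 73.0, 74.9 and 144 CPM against 129, 144 and 95.5 CPM.

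The other large subunit factors were also high in shCtrl 3. EBNA1BP2 had 101, 104 and 153 CPM across the controls, against 145, 144 and 119 CPM with the DNAJC2 hairpin. NOP16 was at 45.2, 42.8 and 72.0 CPM against 55.1, 64.8 and 51.3 CPM, and RRS1 at 39.5, 44.4 and 67.3 CPM against 49.7, 57.1 and 48.6 CPM. Over all libraries the log2 fold changes of these genes were 0.19, 0.10 and 0.04. Without shCtrl 3, EBNA1BP2, NOP16, NOP2, MRTO4 and PES1 rose (0.41, 0.38, 0.63, 0.74 and 0.51) and RRS1 was not called (0.31, edgeR adjusted p 0.0679). NMD3, the adaptor that carries the 60S subunit out of the nucleus, was at 49.9, 48.8 and 61.5 CPM against 74.8, 68.9 and 56.7 CPM. Its log2 fold change was 0.32 (95% interval −0.03 to 0.68), and it rose without shCtrl 3 (0.44).

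GC content of the members went along with their fitted difference over all 6 libraries, and most closely with the difference of the knockdown libraries from shCtrl 3. Across the 38 members, the fitted log2 fold change over all 6 libraries had a Pearson's r of −0.58 and a Spearman's rho of −0.60 with the GC content of the longest transcript. Across 13811 tested genes that r was −0.32. For the mean of the knockdown libraries minus shCtrl 3, r was −0.83, and it was −0.63 across 13811 genes. For the mean of the knockdown libraries minus that of shCtrl 1 and 2, r was −0.19 and rho −0.11 across the members, and r was −0.17 across all genes. Within the controls, for shCtrl 3 minus the mean of shCtrl 1 and 2, r was 0.32 across the members and 0.10 across all genes. These values are across genes of the same libraries, which are not independent replicates. With the GC trend of each library removed, r across the members for the fit of all 6 libraries was 0.10. Removing the trend largely sets such a value near 0 in advance. The median log2 fold change was then 0.25, and the members at an unadjusted p under 0.05 in edgeR numbered 0. WDR75, WDR12 and UTP15 then had log2 fold changes of 0.15, 0.16 and 0.26, and UBTF one of −0.16. Without shCtrl 3 and with that trend removed, 30 members were called higher and 0 lower, where 20.3% of 14020 genes were called higher and 17.3% lower. Of these 30, 27 were also called higher as counted above. NPM1, UTP4 and WDR75 were no longer called, and UTP20, BOP1 and RRS1 were called (adjusted p 0.0454, 0.0375 and 0.0209 in edgeR).

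**Figure D5:**
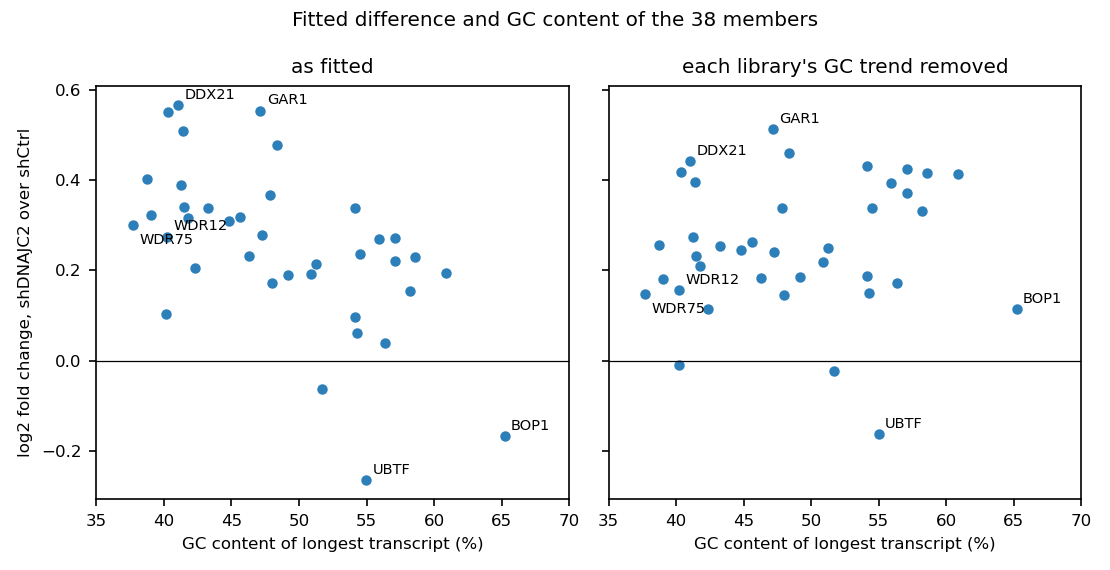
Fitted log2 fold change of each member (shDNAJC2 over shCtrl, all 6 libraries) against the GC content of its longest transcript in percent, as fitted (left) and with the GC trend of each library removed (right). On the left the values are lower at higher GC content, from DDX21 to BOP1. On the right they are not, which removing the trend largely brings about by itself. UBTF is the lowest in both.

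Hosting of snoRNAs was a feature that the choice of the members did not use, and it was shared with related genes. Of the 38 genes, 6 (NOP56, NOP58, DKC1, NCL, WDR43 and GNL3) held 23 annotated snoRNA genes within their span on the same strand, which is 15.8% of the members against 1.54% of the tested genes with annotation, 7.07% of the other ribosome assembly genes and 32.6% of the cytosolic ribosomal protein genes. The median log2 fold change over all libraries was 0.43 in these 6 and 0.23 in the other 32. The median GC content of the longest transcript was 44.3% in the 6 and 48.6% in the 32. Its part in this difference was not tested. Without shCtrl 3 all 6 rose, and 24 of the other 32 rose and 1 fell. The snoRNAs themselves were not analysed here.

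The other genes of the pathway, 99 ribosome assembly and RNA polymerase I genes, were all tested, and 0 were called over all 6 libraries. Their median log2 fold change was 0.19, with 76 values positive, and without shCtrl 3, 49 rose (17.8% of all genes) and 3 fell (17.0%) with a median of 0.33. The groups did not overlap for 8 that were higher (7.33% of all genes) and 5 that were lower (8.43%). TAF1D, a subunit of the factor that selects the rRNA promoter, had 79.7, 74.5 and 88.6 CPM across the controls, against 114, 104 and 105 CPM with the DNAJC2 hairpin, without overlap (log2 fold change 0.41, 95% interval 0.16 to 0.66). Among the 5 lower in every knockdown library were TBL3, of the small subunit processome, at 55.1, 56.1 and 43.6 CPM against 28.2, 37.4 and 40.1 CPM, and NOC2L, at 208, 201 and 195 CPM against 155, 166 and 178 CPM. DDX18, a helicase, was at 89.7, 92.7 and 117 CPM against 145, 134 and 111 CPM. Unadjusted p-values in edgeR were 0.00586, 0.0156, 0.0309 and 0.0422, and each adjusted p was 0.429.

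Beside these, cytosolic ribosomal protein genes had a median log2 fold change of 0.25 over 86 tested genes and 0.40 without shCtrl 3. The other subunits of RNA polymerases II and III had medians of 0.09 and 0.16 (21 genes), and mitochondrial ribosomal protein genes 0.05 and 0.07 (77 genes). Over all 6 libraries the median member therefore had a value close to that of the cytosolic ribosomal proteins (0.27 against 0.25). Without shCtrl 3 the 2 medians were 0.51 and 0.40. That fit called 30 of the 38 members higher and 40 of the 86 cytosolic ribosomal protein genes (17.8% of all genes). In the polymerase II and III list it called 8 of 21 higher, and in the mitochondrial list 13 of 77. The difference between these lists was not tested. In each list the centred level (log2 CPM minus the mean of the gene over the 6 libraries, median over genes) of shCtrl 3 was above that of shCtrl 1 and 2, at 0.26 against −0.34 and −0.33 on the log2 scale for the members and at 0.12 against −0.25 and −0.26 for the cytosolic ribosomal proteins.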

How the data were processed

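Counts of reads per gene were deposited by the authors as whole numbers, with no normalization, 1 column per library, for 6 libraries. The submitters' processing notes name GRCh38 and hg38 with no role stated; aligner, counting program, annotation release and strand setting are not given in the sources used here. Columns were matched to libraries by title. Of 20532 genes, 20279 were matched by identifier to GENCODE 29 (positions, exon lengths, GC content of the longest transcript).

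Differences between groups were tested in R 4.3.3 by edgeR 4.0.16 (quasi-likelihood F test, TMM, filterByExpr, group as only term), with Benjamini-Hochberg adjustment over all genes tested and a threshold of 0.05. CPM values are TMM-normalized, except those of the cell type markers, which are scaled to total counts only. RPKM divides TMM-normalized CPM by the length of the merged exons. Log2 CPM used a prior count of 2. Intervals are at 95%. Alternatives were other size factors and filters, DESeq2 1.42.0, limma-voom (limma 3.58.1), a replicate block, a smooth GC trend removed per library, and leaving out each library. Leaving out shCtrl 3 together with the GC trend was added after seeing the data. The scripts were tested on simulated counts. All members are named. The rule gave per-library values for members without overlap between groups and otherwise the 2 smallest p-values of each role; those of further members were added after their values were seen. The 4 other pathway genes with the smallest p are named. Members, lists and promoter motifs were chosen with earlier results of these data known. Replicate pairs of a group differed by more than sampling noise. Promoter sequences are from RefSeq (GRCh38.p14).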

Additional observations from a re-analysis of the deposited data

How the results depend on the processing

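The median log2 fold change of the 38 members stayed positive, between 0.16 and 0.51, under every alternative run. UBTF kept its direction in all of them, and edgeR's 0 member calls held in all except those without shCtrl 3. DESeq2 called 18 genes in all (0 members) and gave DNAJC2 a log2 fold change of −0.72. Upper quartile factors gave 8 members without overlap between groups (16.4% of all genes), in place of 4. With the GC trend removed, with the replicate block, or with both, 0 members had an unadjusted p under 0.05, in place of 4; the cause was not tested. Leaving out 1 library gave 0 to 31 members called, 0 to 33 members at an unadjusted p under 0.05 (2.33% to 46.6% of all genes), 4 to 35 members without overlap (17.7% to 65.1% of all genes), 0 to 4945 genes called, 0 to 52 other assembly genes called and −0.81 to −0.60 for DNAJC2 (−0.65 without shCtrl 3), where the upper counts are those without shCtrl 3. Without shCtrl 3 and with the GC trend removed, these were 30 members called, 34 at an unadjusted p under 0.05 (49.6% of all genes), 5264 genes called, 55 other assembly genes called and −0.71 for DNAJC2. Small values that turned sign were BOP1 (0.11 with the GC trend removed, 0.14 with the block too, 0.33 without shCtrl 3 and with the GC trend removed, and −0.27 to 0.084 on leaving out 1 library, the positive value without shCtrl 3), DDX10 (−0.010 with the GC trend removed and −0.011 with the block too) and POLR1A (0.024 without shCtrl 3 and with the GC trend removed). On leaving out 1 library, RRP12 ranged from −0.0036 (without shCtrl 2) to 0.89, NOP16 from −0.028 (without shCtrl 2) to 0.38, with −0.0009 without shDNAJC2 2, and RRS1 from −0.10 (without shCtrl 1) to 0.31, with −0.03 without shCtrl 2 and −0.03 without shDNAJC2 2; the highest values were without shCtrl 3. The cause of these turns was not tested. Same-numbered libraries had correlations of −0.38, −0.52 and −0.66 between their deviations from the group means. Such deviations sum to 0 within a group, so these values cannot decide whether a number marks a shared batch. The labels do not say that it does, and the block is given for completeness only. Counts of at least 568 per member and library mean that the spread between libraries, not depth, limits these comparisons.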
